A study of Homo sapiens with 8 samples.

Results

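The mRNAs of 9 enzymes that make NADPH, make its precursor or run the pentose phosphate pathway were followed through RNA-seq of LN229-TAZ(4SA) cells. They were chosen by symbol (PGD, PGLS, TKT, TALDO1, ME1, IDH1, IDH2, NNT and NADK), and all 9 of them were among the 13730 genes of the deposited table and passed the filter on low values. LN229 is a human glioblastoma line. All groups share the TAZ(4SA) construct, a name that conventionally stands for the Hippo pathway co-activator TAZ with serines changed to alanine. The 4 groups, with 2 libraries each, were cells with knockout of TrxR1 (KO) in glucose-deprived medium, control cells (EV) in glucose-deprived medium, KO cells in regular medium and EV cells in regular medium. The labels give neither the number of knockout clones nor the length of the deprivation, so differences between clones and the absence of TrxR1 cannot be told apart. Library a and library b of each group are arbitrary names. The labels do not say whether a and b are separate cultures. The p-values therefore reflect library-to-library spread, which may be technical.

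NADPH is the reducing agent of biosynthesis and of antioxidant defence. TrxR1, the cytosolic reductase encoded by TXNRD1, spends it to keep thioredoxin reduced, and cells that import much cystine also spend it to split cystine into cysteine. The pentose phosphate pathway draws on glucose phosphate. In its oxidative branch PGLS opens a lactone and PGD, phosphogluconate dehydrogenase, releases NADPH and a pentose phosphate. In its reversible branch TKT (transketolase) and TALDO1 (transaldolase) shuttle carbon between pentose phosphates and glycolysis. ME1, the cytosolic malic enzyme, makes NADPH from malate, and IDH1 in the cytosol and IDH2 in mitochondria make it from isocitrate. NNT uses the mitochondrial proton gradient to move hydride from NADH to NADPH, and NADK phosphorylates NAD to NADP in the cytosol.

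PGD, TKT, TALDO1 and ME1 were higher in KO than in EV cells in both media, whereas IDH1 had its largest difference between media. DNA before a RefSeq transcript start is shown for these 5 genes because the results turn on them. The letters TGACNNNGC, the core of the antioxidant response element that NRF2 is known to bind, were searched on both strands of RefSeq promoter windows (GRCh38.p14, 250 bases before to 50 after a start). All 9 genes matched a window by symbol. Matches to that core stand in capitals, and each sequence runs 5′ to 3′ along the gene's strand and stops where an annotated exon of that gene begins. For ME1, TKT and TALDO1 that is DNA outside the annotated gene, whereas for PGD and IDH1 GENCODE has transcripts that start further upstream, so the stretch lies within the gene between annotated exons.
ME1, chr6:83431072-83431301, minus strand: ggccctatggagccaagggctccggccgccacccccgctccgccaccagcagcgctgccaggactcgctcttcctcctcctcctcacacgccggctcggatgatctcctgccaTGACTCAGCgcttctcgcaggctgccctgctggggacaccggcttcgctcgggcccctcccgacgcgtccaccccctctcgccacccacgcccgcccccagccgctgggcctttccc
PGD, chr1:10398814-10399043, plus strand: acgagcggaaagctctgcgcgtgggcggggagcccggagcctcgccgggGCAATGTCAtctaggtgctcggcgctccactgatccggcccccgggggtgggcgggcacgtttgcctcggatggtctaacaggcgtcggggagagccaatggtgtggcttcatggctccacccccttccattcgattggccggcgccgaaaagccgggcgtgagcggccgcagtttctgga
TALDO1, chr11:747214-747328, plus strand: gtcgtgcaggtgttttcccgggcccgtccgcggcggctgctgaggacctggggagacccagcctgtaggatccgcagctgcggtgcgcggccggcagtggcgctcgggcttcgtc
TKT, chr3:53256053-53256272, minus strand: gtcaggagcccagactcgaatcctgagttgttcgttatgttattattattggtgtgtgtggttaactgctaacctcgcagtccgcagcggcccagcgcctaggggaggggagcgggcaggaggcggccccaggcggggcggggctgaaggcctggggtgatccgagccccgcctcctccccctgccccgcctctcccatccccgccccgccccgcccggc
IDH1, chr2:208255134-208255321, minus strand: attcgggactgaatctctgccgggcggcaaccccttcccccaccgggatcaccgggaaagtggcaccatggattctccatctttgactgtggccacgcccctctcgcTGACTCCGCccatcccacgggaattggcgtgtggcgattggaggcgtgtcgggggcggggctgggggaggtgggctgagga
The core was matched in windows of 3 of the 9 genes, ME1, PGD and IDH1, and in 16.1% of 27303 genes with a window. In ME1 it began 137 bases before the start and read TGACTCAGC, overlapping a match to the AP-1 letters TGANTCA, which 9.37% of genes hold. A second match in the ME1 window, on the opposite strand, began at base 12 after the start, beyond the stretch shown, and reads TGACGGTGC. In PGD it began 201 bases before the start on the opposite strand, where it reads TGACATTGC. In IDH1 it began 143 bases before the start in 1 of its 2 windows and read TGACTCCGC. The windows of TKT, TALDO1, PGLS, IDH2, NNT and NADK held no match to it, and no window of the 9 genes held the C/EBP-ATF letters TGATGNAA, found in 4.46% of genes. A match describes letters only.

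Libraries held 70083018 to 107229069 reads over the table, so that 1 read was worth at most 0.0143 CPM, the library-scaled read count in which levels are given here. CPM are not scaled for gene length. TXNRD1 mRNA stood at 370.4 and 350.8 CPM in deprived KO cells, against 508.7 and 492.7 CPM in deprived EV cells, and at 244.9 and 249.5 CPM in regular KO cells, against 262.8 and 260.6 CPM in regular EV cells. A gene-level count does not show whether a transcript encodes an active enzyme, so it does not check the knockout label. The glucose-induced gene TXNIP was at 8.428 to 11.04 CPM in the 4 deprived libraries and at 77.33 to 87.05 CPM in the 4 regular ones. All 10 listed glioma and neural markers were in the table, at 4922 to 5299 CPM in sum, with GFAP at only 0.675 to 1.41 CPM. VIM and CD44 made up most of that sum, and single markers moved with the medium: SOX2 was at 15.12 to 16.9 CPM in the deprived libraries and at 37.95 to 56 CPM in the regular ones, and NES at 376.2 to 437 CPM in the deprived and 786.6 to 860.3 CPM in the regular ones. The part of such a shift in the results was not tested. Of 5 leukocyte markers CD14 alone was in the table, at 0.253 to 1.17 CPM, and none of the 6 epithelial and endothelial markers was. In bulk RNA, fewer cells with a transcript and less of it per cell cannot be told apart.

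Knockout of TrxR1 in regular medium was accompanied by higher mRNA of PGD, TKT, TALDO1 and ME1 and by slightly lower IDH1. These were 5 of the 9 genes. Of the 13057 genes tested 7.25% were called (3.87% higher and 3.38% lower), a call being an adjusted p under 0.05 in limma. The 9 genes and the other lists were chosen with earlier results of these data known. Their shares of calls, here and below, are descriptions and not tests against the shares over all genes. By size of the rise ME1 ranked 28, TALDO1 45, TKT 58 and PGD 67 among all genes tested. The median log2 fold change of the 9 genes was -0.054, against -0.0033 over all genes tested.

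In the oxidative branch, PGD was at 163.3 and 160.1 CPM in regular KO cells, against 112.8 and 111.1 CPM in regular EV cells. Both KO libraries lay above both EV libraries, a log2 fold change of 0.53 ± 0.035 (SE) or 1.44-fold (95% interval 1.37 to 1.53, adjusted p = 1.6e-05). PGLS, the lactonase one step earlier, was at 29.58 and 23.37 CPM in regular KO cells and at 31.59 and 29.9 CPM in regular EV cells. The KO libraries were both lower but far from each other, and the log2 difference of -0.23 ± 0.11 was not called (adjusted p = 0.24).

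TKT and TALDO1, of the reversible branch, were also higher. TKT was at 751.1 and 721.1 CPM in regular KO cells, against 490 and 488.8 CPM in regular EV cells, 1.5-fold (1.43 to 1.58, adjusted p = 2.7e-06). TALDO1 was at 186.2 and 184.6 CPM in regular KO cells, against 119.7 and 116.6 CPM in regular EV cells, 1.57-fold (1.49 to 1.65, adjusted p = 1.0e-06). For both genes the gap between the groups was many times the spread within them. ME1 showed the largest fold of the 9, with 20.62 and 22.2 CPM in regular KO cells, against 12.41 and 12.64 CPM in regular EV cells. Its rise was 1.71-fold (1.56 to 1.87, adjusted p = 5.0e-05) and its groups did not overlap.

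The isocitrate dehydrogenases and the mitochondrial transhydrogenase did not share these rises. IDH1 was at 40.94 and 44.54 CPM in regular KO cells, against 48.9 and 48.55 CPM in regular EV cells. That fall of IDH1, to 0.877-fold (0.816 to 0.941), passed with an adjusted p of 0.035 but was lost in 7 alternatives, among them a fit without the variance trend (adjusted p = 0.1). It was also lost without EV deprived a or b (0.064 each), without KO regular a (0.13) and without EV regular a (0.23) or b (0.19). IDH2 was at 48.09 and 45.5 CPM in regular KO cells and at 49.71 and 47.57 CPM in regular EV cells, and these ranges overlapped (adjusted p = 0.52). NNT was at 121.4 and 122.3 CPM in regular KO cells, against 133.2 and 133.4 CPM in regular EV cells. The NNT difference of -0.13 ± 0.036 on the log2 scale missed the threshold (adjusted p = 0.055), though it passed without deprived KO library a or b (adjusted p = 0.032 each). NADK was at 40.37 and 40.28 CPM in regular KO cells and at 41.53 and 42.18 CPM in regular EV cells, a difference that was not called (adjusted p = 0.44).

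**Figure D1:**
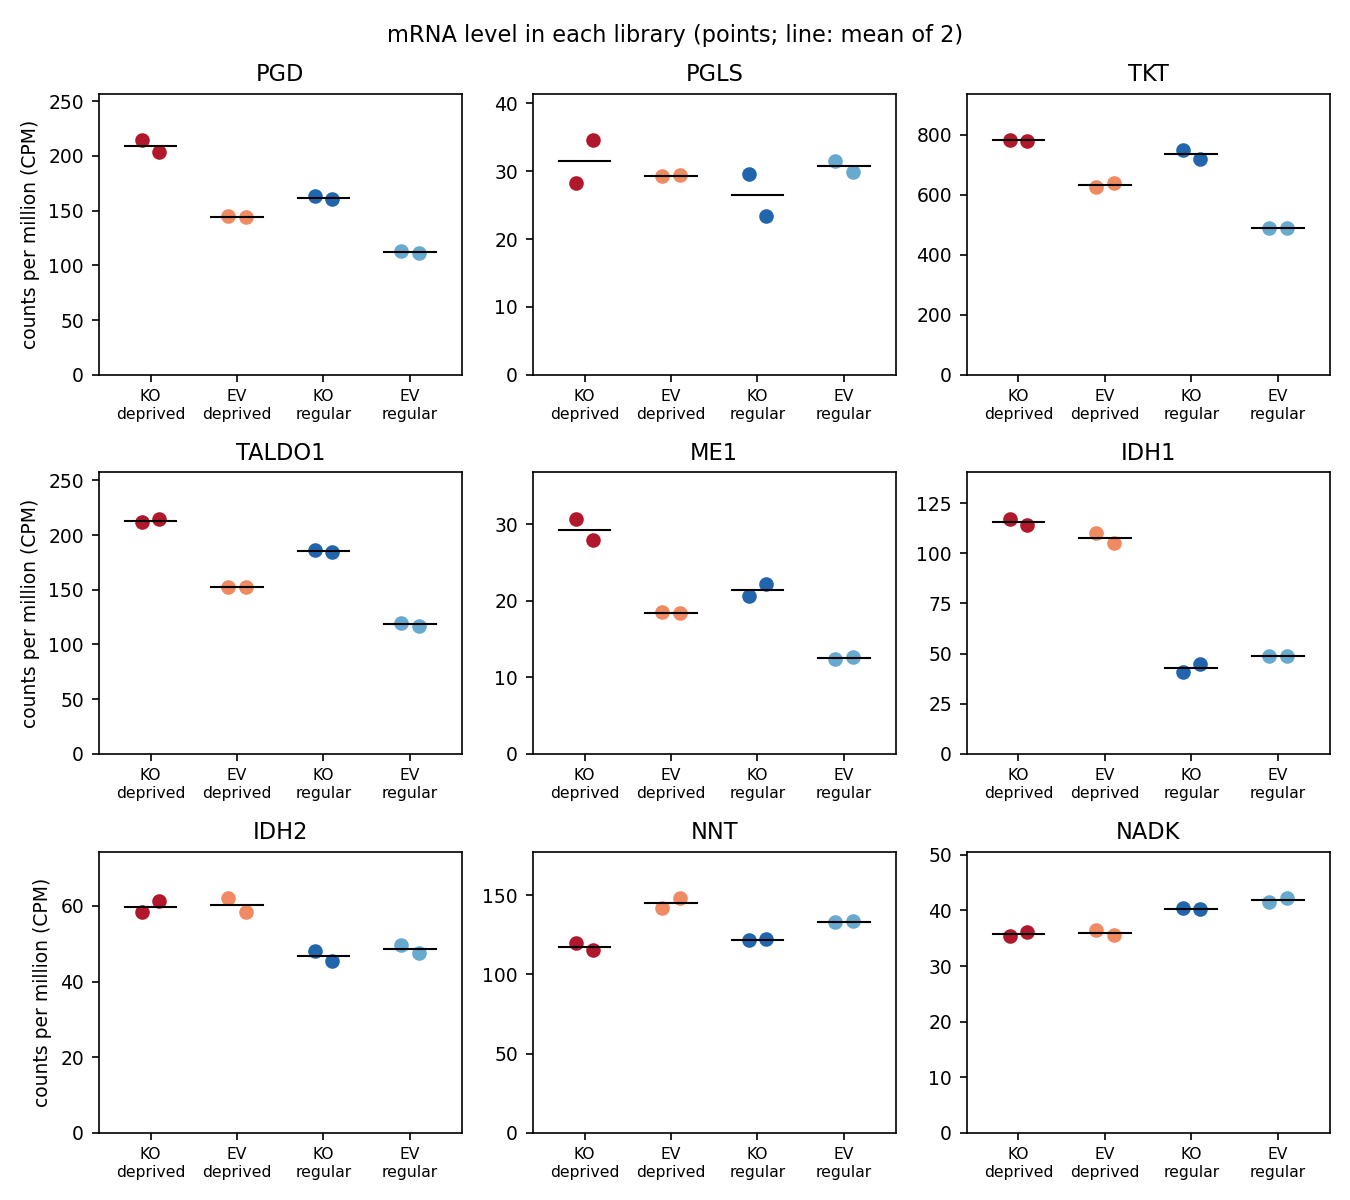
mRNA level of each of the 9 genes in CPM (vertical axes, from 0), with 1 point per library and a line at the mean of 2 libraries, for KO and EV cells in deprived and regular medium. PGD, TKT, TALDO1 and ME1 step down in the order KO deprived, KO regular, EV deprived, EV regular, IDH1 is split by medium, and PGLS has its widest spread in the KO groups (SD 4.4 and 4.39 CPM).

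Under glucose deprivation the same 4 genes were higher in KO than in EV cells, and NNT was lower. These 5 of 9 genes stand beside 19.6% of all genes tested that were called in this comparison (9.04% higher and 10.6% lower). The median log2 fold change of the 9 was 0.10, against -0.0057 over all genes tested. This comparison and the one in regular medium use separate libraries within 1 fit.

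PGD was at 214.1 and 203.5 CPM in deprived KO cells, against 145.1 and 143.7 CPM in deprived EV cells. The KO libraries were the higher ones, at 1.45-fold (1.37 to 1.53, adjusted p = 8.2e-06). TKT was at 781.7 and 780.9 CPM in deprived KO cells, against 626 and 638.1 CPM in deprived EV cells, without overlap. The TKT rise was 1.24-fold (1.18 to 1.3, adjusted p = 1.9e-04). TALDO1 was at 211.7 and 214.3 CPM in deprived KO cells, against 152.9 and 152.2 CPM in deprived EV cells, 1.4-fold (1.33 to 1.47, adjusted p = 7.7e-06). ME1 was at 30.67 and 28.01 CPM in deprived KO cells, against 18.55 and 18.39 CPM in deprived EV cells, 1.59-fold (1.45 to 1.74, adjusted p = 6.6e-05). Neither gene's groups overlapped, and the 4 rises were called under every alternative that was run in both media. By size of the rise ME1 ranked 124, PGD 214, TALDO1 277 and TKT 718 of 13057.

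NNT, the inner-membrane transhydrogenase, was at 119.6 and 115.2 CPM in deprived KO cells, against 142 and 147.9 CPM in deprived EV cells. It fell to 0.81-fold (0.767 to 0.856, adjusted p = 4.2e-04), and this call held under every alternative that was run. NNT shares 217 exon bases with NNT-AS1 on the other strand, and the library kit does not mark strand. NNT-AS1 itself was at 26.74 to 30.97 CPM over all libraries, and its part in the NNT counts was not tested. PGLS, IDH1, IDH2 and NADK were not called between deprived KO and EV cells (adjusted p = 0.59, 0.15, 0.92 and 0.9 in that order). IDH1 was at 116.9 and 114 CPM in deprived KO cells and at 110.1 and 105.1 CPM in deprived EV cells, with an interval of 0.999 to 1.15 for the fold. The fold intervals were 0.923 to 1.07 for IDH2 and 0.935 to 1.06 for NADK, and the wider 0.903 to 1.26 for PGLS.

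**Figure D2:**
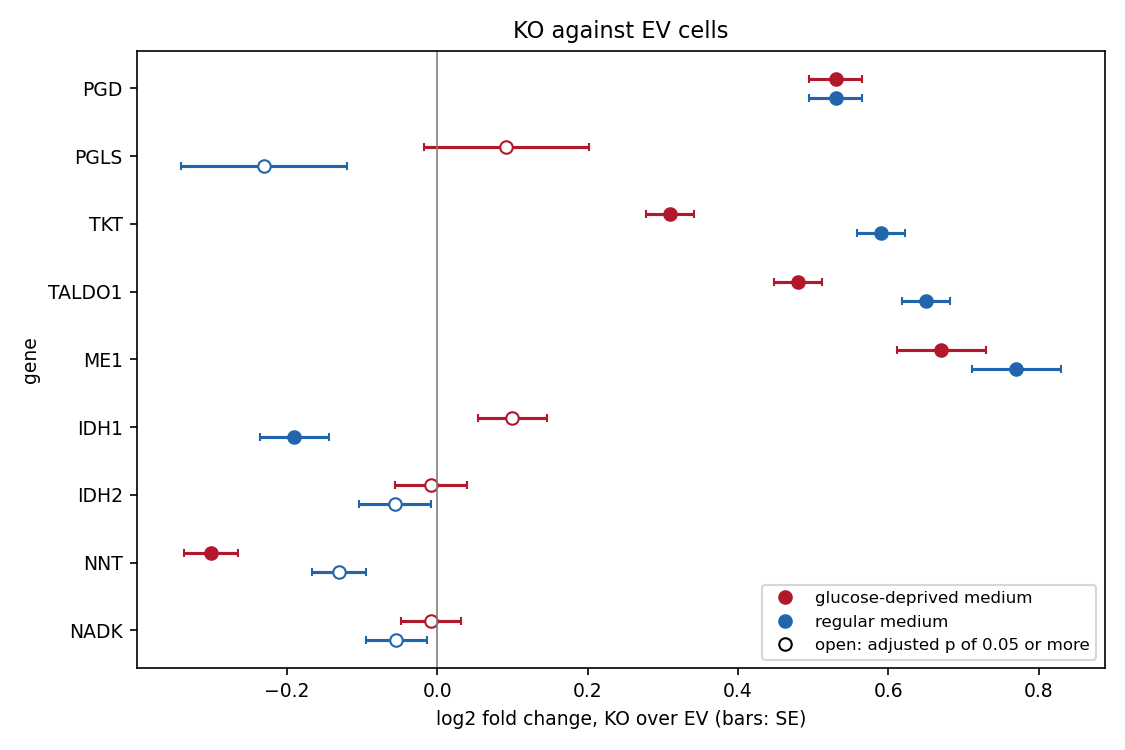
Log2 fold change of KO over EV cells (horizontal axis) for the 9 genes, in deprived medium (red, upper of each pair) and regular medium (blue), with bars of 1 SE and open points where the adjusted p was 0.05 or more. PGD, TKT, TALDO1 and ME1 lie right of 0 in both media, between 0.31 and 0.77, and NNT in deprived medium lies at -0.30.

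Whether the knockout effect differed between media was tested by the interaction, the KO-over-EV log2 change in deprived medium less that in regular medium. It was called for 2 of the 9 genes, against 4.31% of all genes tested (2.31% higher and 2.01% lower). TKT had an interaction of -0.28 ± 0.045 (SE, adjusted p = 0.0075), its knockout rise being 1.24-fold in deprived and 1.5-fold in regular medium. IDH1 had one of 0.29 ± 0.065 (adjusted p = 0.036), with KO-over-EV folds of 1.07 in deprived and 0.877 in regular medium. Neither call held without the variance trend (adjusted p = 0.062 for TKT and 0.11 for IDH1). In that fit the interaction calls over all genes tested also fell, from 563 to 223. The TKT interaction was also lost without EV deprived b, EV regular a or EV regular b (adjusted p = 0.058 to 0.063). That of IDH1 was lost without any 1 of 6 libraries, all but KO deprived a and KO regular b (adjusted p = 0.056 to 0.17).

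TALDO1 (-0.17 ± 0.045, adjusted p = 0.062) and NNT (-0.17 ± 0.05, adjusted p = 0.078) missed the threshold, NNT passing without KO deprived a (-0.20, adjusted p = 0.033). For PGD the knockout effect was 0.53 in each medium, and the interval of the ratio of the 2 folds was 0.927 to 1.08. The interactions of PGLS (0.32 ± 0.15), ME1 (-0.11), IDH2 (0.048) and NADK (0.045) were not called (adjusted p of 0.23 or more). The median interaction of the 9 genes was 0.0014, against -0.0051 over all genes tested.

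Glucose deprivation itself changed most genes of the table, so that counts among the 9 carry little: 73.3% of genes tested were called in KO cells (36.5% higher and 36.8% lower) and 76.2% in EV cells (37.5% higher and 38.7% lower). In KO cells 6 of the 9 genes rose (PGD, TKT, TALDO1, ME1, IDH1, IDH2) and NADK fell. In EV cells 7 rose, these and NNT, and NADK fell. The median log2 change of the 9 was 0.25 in KO cells, against -0.0015 over all genes tested, and 0.37 in EV cells, against -0.011 over all genes tested. The KO and EV responses use separate libraries.

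IDH1 had the largest deprivation response of the 9. In KO cells it was at 116.9 and 114 CPM in deprived medium, against 40.94 and 44.54 CPM in regular medium, 2.7-fold (2.52 to 2.9, adjusted p = 1.4e-09). In EV cells it was at 110.1 and 105.1 CPM in deprived medium, against 48.9 and 48.55 CPM in regular medium, 2.21-fold (2.06 to 2.37, adjusted p = 6.4e-09). All 4 deprived libraries were thus above all 4 regular ones, and by size of the rise IDH1 ranked 314 in KO cells and 566 in EV cells of 13057. IDH1 shares 94 exon bases with IDH1-AS1 on the other strand, which was not in the table under that name. Its mitochondrial counterpart IDH2 was at 58.44 and 61.22 CPM in deprived KO cells, against 48.09 and 45.5 CPM in regular KO cells, 1.28-fold (1.19 to 1.38, adjusted p = 6.3e-05). In EV cells IDH2 was at 62.01 and 58.38 CPM in deprived medium, against 49.71 and 47.57 CPM in regular medium, 1.24-fold (1.15 to 1.33, adjusted p = 1.7e-04). The IDH2 rises were smaller than those of IDH1 and its groups did not overlap.

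The genes that were higher in KO cells were also higher under deprivation. These comparisons share libraries and are not independent. Regular EV cells are the reference of the KO rise in regular medium and of the EV response. Deprived KO cells are the tested group of the KO rise in deprived medium and of the KO response. PGD rose 1.29-fold in KO cells (adjusted p = 4.2e-06) and 1.29-fold in EV cells (adjusted p = 3.9e-06). ME1 rose 1.37-fold in KO cells (1.25 to 1.5, adjusted p = 4.4e-05) and 1.47-fold in EV cells (1.35 to 1.61, adjusted p = 8.0e-06). TALDO1 rose 1.15-fold in KO cells (adjusted p = 1.9e-04) and 1.29-fold in EV cells (adjusted p = 1.6e-06). For these 3 genes and for TKT, deprived EV cells still stood below regular KO cells. ME1, for example, was at 18.55 and 18.39 CPM in deprived EV cells and at 20.62 and 22.2 CPM in regular KO cells. That order is a description, with no test. TKT rose 1.29-fold in EV cells (adjusted p = 1.6e-06), but in KO cells only 1.06-fold (adjusted p = 0.03). That small TKT rise was lost in 8 alternatives, among them the fit without the variance trend (adjusted p = 0.076), the fit of the 2 groups alone (0.14) and leaving out any 1 of 6 libraries (0.05 to 0.16), all but KO deprived b and KO regular a.

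NADK, the cytosolic NAD kinase, was the member that fell. It was at 35.44 and 36.17 CPM in deprived KO cells, against 40.37 and 40.28 CPM in regular KO cells, 0.888-fold (0.835 to 0.944, adjusted p = 0.0025). In EV cells it was at 36.46 and 35.59 CPM in deprived medium, against 41.53 and 42.18 CPM in regular medium, 0.861-fold (0.81 to 0.915, adjusted p = 5.0e-04). NADK libraries thus split by medium with no overlap. NNT rose 1.09-fold in EV cells (adjusted p = 0.01), a call lost without EV deprived b (0.11), EV regular a (0.063) or EV regular b (0.059), and its change of -0.054 in KO cells was not called (adjusted p = 0.19). PGLS was at 28.34 and 34.56 CPM in deprived KO cells and 29.58 and 23.37 CPM in regular KO cells, overlapping ranges with an adjusted p of 0.055. In EV cells PGLS was at 29.29 and 29.43 CPM in deprived medium and 31.59 and 29.9 CPM in regular medium (adjusted p = 0.59). The KO result for PGLS rested on single libraries: the log2 change was 0.39 (adjusted p = 0.0088) without KO deprived a and 0.42 (adjusted p = 0.0038) without KO regular a. PGLS shares 261 exon bases with AC010618.3 on the other strand, which was not in the table under that name.

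**Figure D3:**
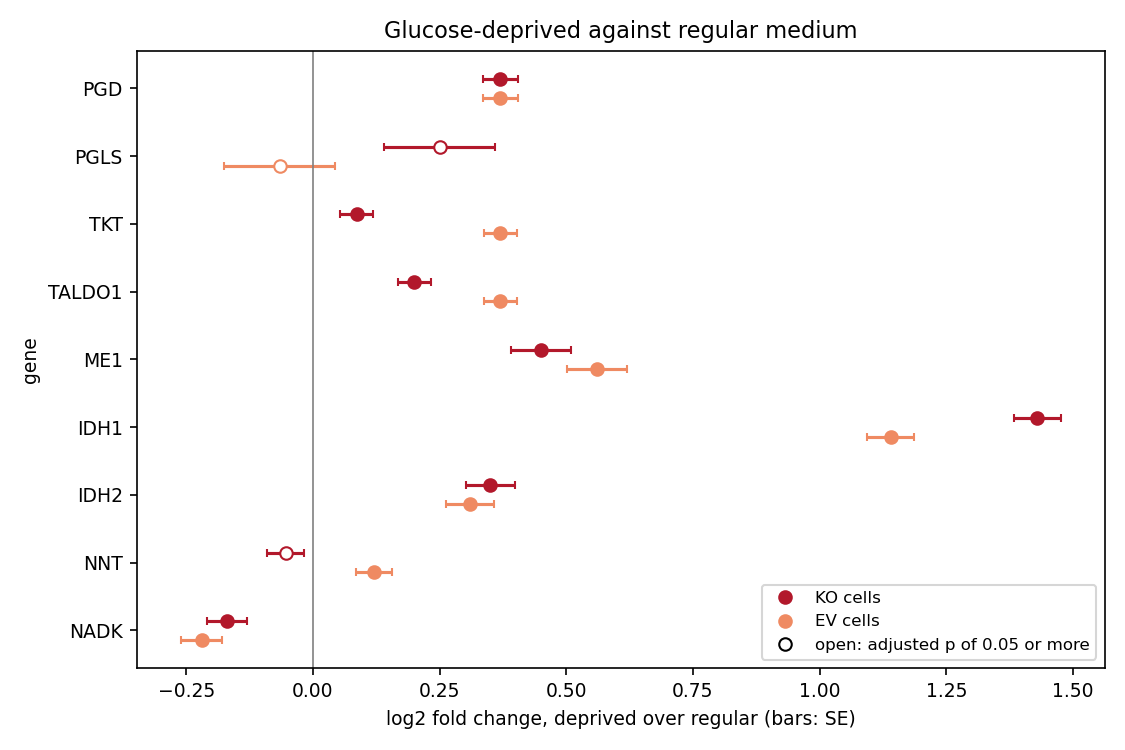
Log2 fold change of deprived over regular medium (horizontal axis) for the 9 genes, in KO cells (red, upper of each pair) and EV cells (orange), with bars of 1 SE and open points where the adjusted p was 0.05 or more. IDH1 stands apart at 1.43 in KO and 1.14 in EV cells, NADK lies left of 0 in both, and the widest gap between the pairs of PGLS comes with the widest bars.

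Levels of different genes were compared only per length, as CPM per kilobase (kb) of the principal GENCODE transcript. TKT was the most abundant of the 9, at 260 ± 0.19 in deprived KO cells, 210 ± 2.8 in deprived EV cells, 245 ± 7.1 in regular KO cells and 163 ± 0.29 CPM per kb in regular EV cells (SD, n = 2 each). TALDO1 followed at 158 ± 1.3, 113 ± 0.36, 138 ± 0.83 and 87.8 ± 1.6 CPM per kb in the same order of groups, and PGD at 111 ± 4, 76.6 ± 0.5, 85.8 ± 1.2 and 59.4 ± 0.62 CPM per kb. In each group these 3 were separated from each other by more than their SD. ME1 had the lowest level per length in every group, at 8.7 ± 0.56 in deprived KO cells, 5.48 ± 0.033 in deprived EV cells, 6.35 ± 0.33 in regular KO cells and 3.72 ± 0.048 CPM per kb in regular EV cells, and NADK was next lowest. The order depends in part on the length used. Over the union of annotated exons in deprived KO cells TKT still led at 82.2 CPM per kb, TALDO1 (70.9) and PGD (70.4) were nearly level, and NADK (6.43) lay below ME1 (8.7).

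The middle of the order changed with the medium. In regular KO cells IDH1 (17.5 ± 1), IDH2 (17.4 ± 0.68) and NNT (18.8 ± 0.099 CPM per kb) differed by little more than their SDs, and PGLS was above them at 25.8 ± 4.3 CPM per kb. In deprived KO cells IDH1 ranked just below PGD at 47.3 ± 0.85 CPM per kb, above PGLS at 30.6 ± 4.3, IDH2 at 22.2 ± 0.73 and NNT at 18.1 ± 0.48. The ratio of IDH1 to IDH2 per length was 2.21 and 2.06 in deprived KO cells and 1.96 and 1.99 in deprived EV cells, against 0.94 and 1.08 in regular KO cells and 1.09 and 1.13 in regular EV cells. The cytosolic and the mitochondrial transcript were thus near parity in regular medium and apart in deprived medium, on this scale of length. Over the union of annotated exons IDH1 came to 24.5 and IDH2 to 21.3 CPM per kb in deprived KO cells. In regular KO cells they came to 9.05 and 16.6 CPM per kb, so the parity depends on the length used. The relative shift with the medium cannot depend on it, because each gene is divided by the same length in every library.

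**Figure D4:**
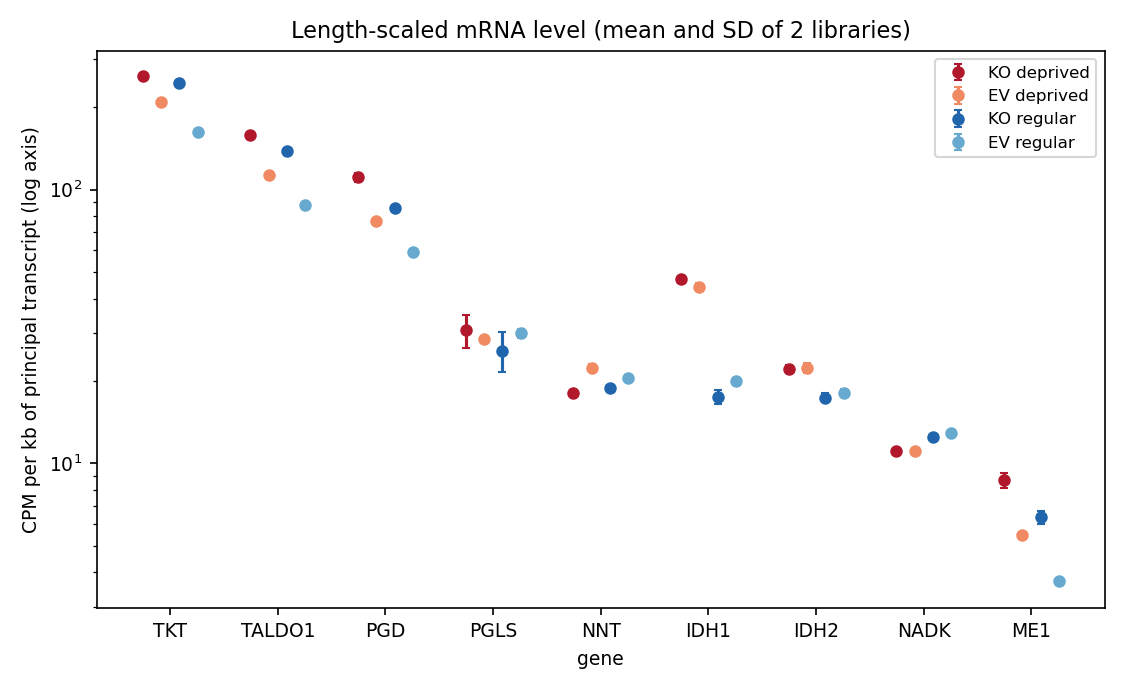
Length-scaled mRNA level of the 9 genes in CPM per kb of the principal transcript (vertical log axis), as the mean and SD of 2 libraries in each of the 4 groups. TKT, TALDO1 and PGD lie above the other 6 genes in every group, and IDH1 moves between 17.5 CPM per kb in regular KO cells and 47.3 CPM per kb in deprived KO cells.

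The profiles over the 8 libraries, centred on each gene's mean log2 CPM, were compared by Euclidean distance, which describes how alike genes moved and carries no test because the libraries share their groups. TALDO1 lay 0.187 from PGD and 0.208 from TKT, and ME1 lay 0.356 from PGD, while IDH1 was 1.38 or more from every other member. The profiles were not scaled, so the distance also reflects how large the changes were. IDH1 and IDH2, 1.38 apart, had a Pearson correlation of 0.97 over the libraries, and IDH1 and NADK had one of -0.95. The 3 genes outside the set that lay nearest to PGD among 13048 were UCHL1 (0.184), EPHX1 (0.189) and MGST1 (0.222). Nearest to TKT were UCHL1 (0.196), MAP3K14 (0.222) and RUSC2 (0.223), to TALDO1 SPP1 (0.179), GSTM3 (0.185) and MGST1 (0.191), and to ME1 SRXN1 (0.211), KYNU (0.237) and EPHX1 (0.242). UCHL1, EPHX1 and MGST1 each appeared for more than 1 of these 4 members. IDH1 had CDC6 (0.166), EFCAB7 (0.177) and KDM7A-DT (0.187) nearest, and IDH2 had GPS2 (0.0742), DEPDC5 (0.0922) and UBE2D4 (0.0937). PGLS had CORO1B (0.117), FBXW5 (0.142) and TCIRG1 (0.142), NNT had DGKA (0.0644), ANK3 (0.0842) and UNC119B (0.0963), and NADK had COL4A6 (0.057), DENND6A (0.0672) and PDCD6 (0.0717).

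Other genes of NADPH metabolism were read from 4 lists, chosen with earlier results of these data known, with 47 genes tested. In regular medium 7 were higher and 1 was lower in KO cells, beside the 3.87% higher and 3.38% lower of all genes tested. These calls became fewer without EV regular a, as did the calls over all genes tested. Of 22 NADPH-using enzymes 6 rose and 1 fell. Other NADPH producers and the mitochondrial NAD kinase, together 6 genes, gave 1 rise. Of 10 other pentose phosphate genes and 9 genes of NAD synthesis or NADP(H) removal none was called by limma. In these 2 lists 2 and 3 genes, in that order, had an unadjusted p under 0.05. NQO1, a quinone reductase, stood at 262.8 CPM in KO and 107.8 CPM in EV cells (2.44-fold, adjusted p = 4.2e-09). GSR, glutathione reductase, stood at 110.4 CPM in KO and 69.42 CPM in EV cells (1.59-fold, adjusted p = 3.6e-06). AKR1C1, an aldo-keto reductase with near-identical family members that make its count uncertain, stood at 5.678 CPM in KO and 2.014 CPM in EV cells (adjusted p = 9.3e-05). The gene that fell was FDXR, ferredoxin reductase (-0.26, adjusted p = 0.043). That call was lost without the variance trend, and when any 1 library of EV deprived, KO regular or EV regular cells was left out.

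In deprived medium 10 of the 47 were higher and 7 lower in KO cells, beside the 9.04% higher and 10.6% lower of all genes tested. These calls became fewer without EV deprived a or b, as did the calls over all genes tested. NADPH-using enzymes again held most rises, 9 of 22 with 3 falls, led by NQO1 (1.76-fold, adjusted p = 1.6e-07), GSR (1.53-fold, adjusted p = 4.3e-06) and AKR1C3 (1.81-fold, adjusted p = 2.5e-04). The smallest adjusted p-values among the falls were those of TXNRD1, ALDH1L2 and H6PD. TXNRD1, the knocked-out gene itself, came to 0.72-fold (adjusted p = 2.0e-05). ALDH1L2, a mitochondrial folate enzyme that makes NADPH, came to 0.757-fold (adjusted p = 3.7e-04). H6PD, which makes NADPH in the endoplasmic reticulum, came to 0.82-fold (adjusted p = 0.0018). Other pentose phosphate genes gave 0 rises and 2 falls of 10, with 4 at an unadjusted p under 0.05. In a list of 10 genes such counts lie near the 9.04% higher and 10.6% lower of all genes tested. The other producers and the mitochondrial NAD kinase together gave 1 fall of 6, and NAD synthesis and removal 1 rise and 1 fall of 9. The interaction was called for 3 of the 47, beside 4.31% of all genes tested. It was negative in each, for NQO1 (-0.47, adjusted p = 3.7e-04), TXNRD1 (-0.39, adjusted p = 0.0025) and ALDH1L2 (-0.46, adjusted p = 0.004). As the knocked-out gene, TXNRD1 is part of the counts of falls and interactions given here. How far the edit itself changed its mRNA was not tested.

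**Figure D5:**
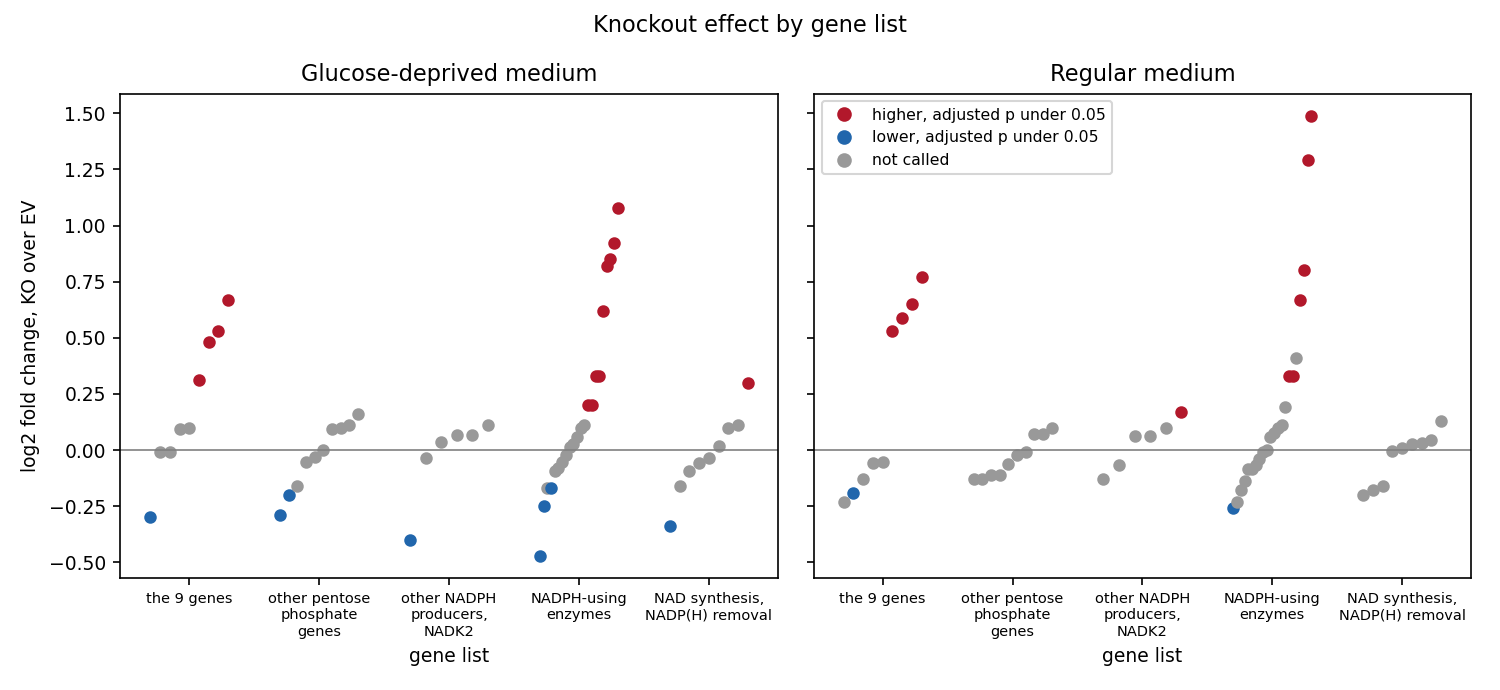
Log2 fold change of KO over EV cells (vertical axis) of each tested gene in the 9-gene set and 4 other lists, in deprived (left) and regular medium (right), with called rises in red, called falls in blue and the rest grey. In both panels the called rises lie mostly among the 9 genes (4 in each) and the NADPH-using enzymes (9 and 6). The 10 other pentose phosphate genes have none, near the shares over all genes tested (9.04% higher in deprived and 3.87% in regular medium).

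Deprivation called 37 of the 47 in KO cells (25 higher and 12 lower) and 39 in EV cells (27 higher and 12 lower), beside the 73.3% and 76.2% of all genes. By smallest adjusted p the rises were led by ALDH1L2 and MTHFD2, both mitochondrial folate enzymes. ALDH1L2 was at 109.7 and 104.6 CPM in deprived KO cells, against 12.55 and 12.81 CPM in regular KO cells (8.43-fold, adjusted p = 5.4e-12). In EV cells ALDH1L2 was at 144.2 and 138.7 CPM in deprived medium, against 12.46 and 11.83 CPM in regular medium (11.6-fold, adjusted p = 2.9e-12). MTHFD2, a neighbouring step of that folate pathway, rose 3.38-fold in KO cells (adjusted p = 1.4e-10) and 3.71-fold in EV cells (adjusted p = 7.6e-11). PYCR1, which uses reduced cofactor to make proline, rose 2.41-fold in KO cells (adjusted p = 1.7e-08), and NQO1 1.84-fold in EV cells (adjusted p = 2.6e-09). Among the falls, TXNRD2, the mitochondrial thioredoxin reductase, came to 0.609-fold in KO cells (adjusted p = 2.2e-07) and 0.66-fold in EV cells (adjusted p = 7.6e-07). RPIA, the pentose phosphate isomerase between the 2 branches, fell to 0.669-fold in KO cells (adjusted p = 1.0e-06) and 0.658-fold in EV cells (adjusted p = 6.9e-07), in the opposite direction to PGD, TALDO1 and TKT.

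In GENCODE release 29 on GRCh38, the genes lie at chr1:10398592-10420144 (PGD), chr19:17511629-17521288 (PGLS), chr3:53224707-53256052 (TKT), chr11:747329-765024 (TALDO1), chr6:83210389-83431071 (ME1), chr2:208236227-208266074 (IDH1), chr15:90083045-90102504 (IDH2), chr5:43602692-43707405 (NNT) and chr1:1751232-1780457 (NADK). Their reads were counted per gene, so that isoforms were not told apart.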

How the data were processed

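RNA was extracted with TRIzol and made into libraries with SMART-Seq mRNA HT and Nextera XT kits, per the labels' protocols, a preparation that does not mark strand. HISAT2, edgeR and the GRCh38 build were used, per the submitters' processing notes, without versions. The counting tool, annotation and gene filter are not given in the sources used here.

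The deposited table holds log2 CPM of 13730 genes (82 without a symbol, and 13646 IDs in the RefSeq gene table). The scale was read from the values: 100% of them were whole reads within a tolerance of 0.05 after removal of an offset of 0.023 CPM. CPM in the text are without that offset. Column headers name the group without replicate numbers, and the ending GlcN, unexplained by the labels, was read as glucose-deprived. Within-group chi-square between libraries was 4.06 to 18.50 per gene, so no library was a copy of another.

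limma 3.58.1 (R 4.3.3) was run on the deposited log2 CPM with a variance trend, as 1 model over the 4 groups (4 residual and 6.29 prior degrees of freedom). The filter was a mean of 0 or more on that scale, which kept 13057 genes and left out 673. Two-sided p-values were adjusted (Benjamini-Hochberg) over all genes of a contrast, folds are 2 to the power of the log2 difference, with 95% intervals, and the steps were tested on simulated data. Alternatives were median-of-ratios scaling, log2(CPM + 1), no filter, a minimum of 1, no variance trend, each library left out, the 2 compared groups alone, and voom weights on whole reads.

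The members and gene lists were chosen with earlier results of these data known. The text names all 9 members, up to 3 called genes of the other lists in each direction and contrast by smallest adjusted p, and the 3 nearest genes of each member. A result that this rule would name is not reported here. Promoter windows are from RefSeq (GRCh38.p14) and exons from GENCODE release 29.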

Additional observations from a re-analysis of the deposited data

Results flagged for a closer look

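The knockout effect differed between the media for TKT and IDH1, by the test of the difference itself. For TKT the KO-over-EV log2 change in deprived medium less that in regular medium was -0.28 ± 0.045 (SE, limma adjusted p = 0.0075), and both KO libraries were above both EV libraries in each medium. For IDH1 it was 0.29 ± 0.065 (adjusted p = 0.036), with both KO libraries above both EV libraries in deprived medium and below them in regular medium. Over the alternatives the adjusted p reached 0.063 for TKT and 0.17 for IDH1, so that neither call held in all of them. The groups of 2 libraries were too small for a test of single outlying libraries.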

How the results depend on the processing

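The called rises of PGD, TKT, TALDO1 and ME1 in KO cells in both media, and of PGD, TALDO1, ME1, IDH1 and IDH2 under deprivation in both cell types, kept their direction and call under every alternative run. Without the variance trend the interaction was called for 0 of the 9 genes in place of 2 (limma, where 4 of the 9 had an unadjusted p under 0.05 in the fit with the trend, and voom weights gave 2 calls), and leaving out 1 library gave 0 to 3. Among the 47 other genes, leaving out 1 library gave 5 to 9 calls for KO against EV in regular medium (8 with all libraries, 5 without EV regular a), 8 to 19 in deprived medium (17 with all, 9 without EV deprived a and 8 without EV deprived b) and 3 to 5 for the interaction (3 with all, 5 without KO deprived a or KO regular b). Calls over all genes tested moved in the same direction in each of these named fits. Without the variance trend the interaction was called for 223 of all genes tested, in place of 563. The cause was not tested, beyond the fewer libraries in fits with 1 left out. Of the values of single members, 622 kept direction and call, 29 lost the call, 5 gained one and 10 changed sign, and of the counts 136 stayed within 1.5 times and 12 did not. With voom weights on whole reads 902 of all genes were called for KO against EV in regular medium and 2549 in deprived medium.

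Changes of sign occurred only for differences that were not called. With 1 library left out, KO over EV in deprived medium ranged over -0.051 (without KO deprived b) to 0.24 for PGLS, -0.052 to 0.035 for IDH2 and -0.026 to 0.0087 for NADK. It was above 0 for IDH2 (0.025 and 0.035) and NADK (0.0061 and 0.0087) without KO deprived a and without EV deprived a. The PGD interaction was -0.0077 under median-of-ratios scaling and ranged over -0.035 (without KO deprived a) to 0.038 (without KO deprived b). Median-of-ratios scaling shifted no library by more than 0.007 on the log2 scale. No paired analysis was possible because the column headers carry no replicate numbers. With 2 libraries a group, small differences such as those of PGLS (SE 0.11) could not be resolved.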
